A study of Homo sapiens with 6 samples.

Results

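The 9 genes examined here encode HLA class I molecules and the machinery that fills them with peptide: the heavy chains HLA-B, HLA-C, HLA-E, HLA-F and HLA-G, the light chain B2M, the transporter subunits TAP1 and TAP2, and TAPBP (tapasin). They were taken by name from the deposited tables, which list 42307 genes, and each of the 9 names occurred on 1 row. RNA was sequenced from U251, an established human glioblastoma cell line whose genotype the labels give as WT in every library. The STING-OE group is 3 libraries of cells given a STING overexpression plasmid, and the NC group is 3 libraries of cells given a negative control plasmid. Both plasmids were used at 1 ug per well and both groups were sampled on day 3. Neither the promoter of the plasmids nor the share of cells that took them up is given, so each value is an average over the cells of a culture, and fewer cells of a kind and less RNA per cell cannot be told apart. Nor do the labels say that replicates were separate cultures, so p-values measure only the spread between these libraries, which may be technical.

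An HLA class I molecule is a heavy chain paired with beta-2 microglobulin (B2M) and a short peptide, carried to the cell surface and shown there to cytotoxic T cells and natural killer cells. Most of these peptides are made by the proteasome in the cytosol, pumped into the endoplasmic reticulum by the TAP1-TAP2 transporter, and loaded onto heavy chains that tapasin holds next to the transporter. Interferons and NF-kB are known to raise class I genes, and STING, an adaptor of the pathway that senses DNA in the cytosol, is known to switch on type I interferon. The question here is how RNA levels of class I genes differed between cells given the STING plasmid and cells given the control plasmid.

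Of the 9 genes, 8 passed the low-count filter and were tested, and HLA-G did not. HLA-B, HLA-C and HLA-F rose in STING-OE cells, by 1.2-fold to 1.31-fold. TAPBP fell to 0.819 of its NC level. HLA-E, B2M, TAP1 and TAP2 did not pass the threshold, an adjusted p of 0.05 by the quasi-likelihood test of edgeR (Benjamini-Hochberg over all tested genes). Across all genes 324 of 21679 tested genes passed (1.49%), with 131 higher (0.604%) and 193 lower (0.89%), or 253 higher and 142 lower with scaling to total counts. The median log2 fold change was 0.22 over the 8 tested genes, 7 of which had a positive estimate, and 0.00103 over all tested genes. Together the 9 genes took 0.72%, 0.663% and 0.736% of all counts in STING-OE libraries 1, 2 and 3, against 0.617%, 0.634% and 0.57% in NC libraries 1, 2 and 3.

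Total counts were 75605739 to 76566375 in STING-OE libraries and 71498790 to 76158548 in NC libraries, and 3 counts corresponded to 0.0392 to 0.042 CPM. Levels are in CPM, counts scaled to library sizes that carry TMM factors. STING1, the gene on the plasmid, was at 56.3, 54.6 and 47.3 CPM in STING-OE libraries, against 36.2, 37.1 and 31.2 CPM in NC libraries, and rose 1.51-fold (edgeR adjusted p = 0.00221). The 8 glioma line markers summed to 4065 to 4203 CPM in STING-OE libraries and 4317 to 4477 CPM in NC libraries. GFAP was the marker among them that was called, at 21.3, 17.7 and 25.5 CPM in STING-OE libraries, against 42.8, 34.9 and 39.4 CPM in NC libraries (edgeR adjusted p = 0.033), and S100B was near absent, at no more than 0.143 CPM in STING-OE libraries and 0.331 CPM in NC libraries. The 8 leukocyte markers, whose cells are rich in class I molecules, summed to 3.25 to 6.71 CPM in STING-OE libraries and 4.07 to 14.9 CPM in NC libraries. NKG7 was at 0 in STING-OE library 1, and 0 of the 7 tested leukocyte markers were called by edgeR. Sums were also low for 4 endothelial markers (1.42 to 2.72 CPM in STING-OE libraries, 2.67 to 2.79 CPM in NC libraries) and 4 epithelial markers (2.46 to 4.45 CPM in STING-OE libraries, 2.09 to 4.85 CPM in NC libraries). The part of such cells in the class I values was not tested.

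Promoter sequences are shown for the 4 genes that passed the test and for TAP1, because class I promoters are known to carry elements for interferon and NF-kB signalling. Each line gives 130 bases that lie before the RefSeq start site on GRCh38.p14, written 5′ to 3′ on the gene's own strand. They are reference sequences, not those of U251, whose HLA alleles may differ. Capitals mark the letters GAANNGAAA or GAAANNGAAA, an interferon-stimulated response element (ISRE) type motif, the kappaB motif of NF-kB, the core TGACGC of the X2 box and the CCAAT box, each on either strand. The motifs were chosen after the sequences were seen, and adjoining matches merge into a single run of capitals.
HLA-B, chr6:31357265-31357394, minus strand: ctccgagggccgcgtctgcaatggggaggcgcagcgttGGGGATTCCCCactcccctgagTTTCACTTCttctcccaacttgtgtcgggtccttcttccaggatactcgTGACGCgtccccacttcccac
HLA-C, chr6:31272174-31272303, minus strand: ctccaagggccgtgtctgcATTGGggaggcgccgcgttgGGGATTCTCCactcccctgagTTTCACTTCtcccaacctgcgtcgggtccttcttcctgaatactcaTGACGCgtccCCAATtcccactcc
HLA-F, chr6:29723218-29723347, plus strand: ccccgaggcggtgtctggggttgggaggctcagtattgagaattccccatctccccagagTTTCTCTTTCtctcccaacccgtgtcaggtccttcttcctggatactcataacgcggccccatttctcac
TAP1, chr6:32853766-32853895, minus strand: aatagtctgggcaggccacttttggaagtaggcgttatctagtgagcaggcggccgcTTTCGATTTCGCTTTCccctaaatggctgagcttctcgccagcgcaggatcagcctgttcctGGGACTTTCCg
TAPBP, chr6:33314079-33314208, minus strand: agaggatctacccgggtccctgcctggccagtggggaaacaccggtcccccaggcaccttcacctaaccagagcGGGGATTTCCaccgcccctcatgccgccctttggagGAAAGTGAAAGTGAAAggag

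A RefSeq promoter of 300 bases, 250 before to 50 after the start site, was found for 8 of the 9 genes, all but HLA-E. Where RefSeq held several entries (3 for HLA-G and 2 for TAP1), the one nearest the start of the deposited model was used. The start site lay 659 bases from that start for HLA-F, 274 for TAP1 and 173 for TAPBP. An ISRE-type match lay in 7 of these 8, in HLA-B, HLA-C, HLA-F, B2M, TAP1, TAP2 and TAPBP, and in 10.6% of 35116 promoters. HLA-B and HLA-C held only the short form GAANNGAAA, found in 7.66% of all promoters, and GAAANNGAAA was found in 3.57%. As the motifs were chosen after the sequences were seen, such shares are a description. A kappaB match lay in HLA-B, HLA-C, B2M, TAP1 and TAPBP, and in 11.3% of all promoters. The X2 core was found in HLA-B, HLA-C and TAP2, and in 9.14% of all promoters, and the CCAAT letters in 34.6%. Matches of the ISRE type and of kappaB thus stood in the promoters of HLA-B and HLA-C, which rose, of TAPBP, which fell, and of TAP1 and B2M, which did not pass the test. Sequence identity between the 300-base promoters was 88.5% for HLA-B and HLA-C, 79.2% for HLA-B and HLA-F, and 78.5% for HLA-C and HLA-F. For HLA-B and the HLA-G entry used it was 43.2%, below the 46.1% of HLA-B and TAP1. The lack of a match in HLA-G holds for that entry. A match is a run of letters and does not show that a factor binds there.

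HLA-B and HLA-C are classical heavy chains, the ones that show peptides to cytotoxic T cells. HLA-B (ENSG00000234745, chromosome 6, minus strand, 31269491 to 31357179) stood at 1339, 1200 and 1296 CPM in STING-OE libraries 1, 2 and 3, against 978, 1068 and 880 CPM in NC libraries 1, 2 and 3. Its lowest STING-OE library lay 1.12 times above its highest NC library. Means were 1279 ± 71.3 CPM in STING-OE cells and 975 ± 93.8 CPM in NC cells (SD, n = 3 each). The log2 fold change was 0.39 (SE 0.067, edgeR adjusted p = 0.0214), the largest estimate of the 8 tested genes. Over 18 alternatives the adjusted p was 3.82e-08 (DESeq2) to 0.168, and the call was lost when the authors' FPKM values were fitted with limma (0.141 and 0.157 with pseudocounts of 0.1 and 1). On the authors' FPKM scale, which divides by gene length, HLA-B was at 390 ± 17.2 in STING-OE cells and 293 ± 28.3 in NC cells.

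HLA-C (ENSG00000204525, chromosome 6, minus strand, 31268749 to 31272105), which also serves as a ligand of killer cell immunoglobulin-like receptors on natural killer cells, was at 710, 621 and 702 CPM in STING-OE libraries, against 565, 587 and 540 CPM in NC libraries. The groups did not overlap, with a gap of 1.06 times between the nearest libraries. HLA-C averaged 678 ± 49.5 CPM in STING-OE cells and 564 ± 23.1 CPM in NC cells (SD, n = 3 each), and its log2 fold change was 0.27 (SE 0.0527, edgeR adjusted p = 0.0213). Over 18 alternatives the adjusted p was 7.2e-05 (DESeq2) to 0.175. The call was lost with limma-voom (0.0593), with the replicate number as a block (0.0913) and in both limma fits of FPKM (0.165 and 0.175).

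The similarity of HLA genes limits how far these values can be assigned to single genes. In the coordinates of the files, the model of HLA-B spans 87689 bases and shares 2615 bases with the model of HLA-C on the same strand. The labels and headers do not say how reads were divided between similar or overlapping models. When HLA-B was summed with the tested models it overlaps (HLA-C, USP8P1, RPL3P2 and MIR6891), the sum rose with a log2 fold change of 0.346 (edgeR adjusted p = 0.0115). USP8P1 was below 1 CPM in every library (log2 fold change −0.68, edgeR adjusted p = 0.497), as was MIR6891 (0.54, edgeR adjusted p = 0.77). RPL3P2 had at most 1.01 CPM in STING-OE libraries and 1.28 CPM in NC libraries (0.04, edgeR adjusted p = 0.981). WASF5P was at 0 and AL671883 at no more than 3 counts in every library.

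HLA-E and HLA-F are nonclassical heavy chains. HLA-E (ENSG00000204592, chromosome 6, plus strand, 30489509 to 30494194), which presents leader peptides of other class I chains to NKG2 receptors, was at 651, 552 and 635 CPM in STING-OE libraries, against 541, 579 and 503 CPM in NC libraries. STING-OE library 2 lay below NC library 2, so the groups overlapped. The log2 fold change was 0.18 (SE 0.0675) and did not pass the edgeR quasi-likelihood test (adjusted p = 0.241, unadjusted p = 0.0222), and DESeq2 gave an adjusted p of 0.0461, with 0.0461 to 0.526 over 17 alternatives.

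HLA-F (ENSG00000204642, chromosome 6, plus strand, 29722775 to 29729351), a chain that can reach the cell surface without peptide, was at 86.3, 81.6 and 87.2 CPM in STING-OE libraries, against 68, 75.6 and 61.8 CPM in NC libraries. Every STING-OE library was above every NC library, by at least 1.08 times. HLA-F averaged 85 ± 3.03 CPM in STING-OE cells and 68.4 ± 6.93 CPM in NC cells (SD, n = 3 each), and the log2 fold change was 0.31 (SE 0.0648, edgeR adjusted p = 0.029). Over 18 alternatives the adjusted p was 0.000486 (DESeq2) to 0.174, and the call was lost with limma-voom (0.0704), the replicate block (0.0823) and both FPKM fits (0.164 and 0.174). Models on the opposite strand overlap it, and without a known strand setting their reads cannot be told apart. HLA-F-AS1 was at 12.6, 12.8 and 11.1 CPM in STING-OE libraries, against 12, 12.9 and 10.6 CPM in NC libraries. AL645939 differed by 0.47 on the log2 scale (edgeR adjusted p = 0.617) and RPL23AP1 had at most 3 counts in a library. Summed with its tested overlapping models, HLA-F rose by 0.28 on the log2 scale (edgeR adjusted p = 0.0307).

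HLA-G (ENSG00000204632, chromosome 6, plus strand, 29826967 to 29831125), a chain best known from the placenta, had 0, 0 and 7 counts in STING-OE libraries, against 4, 0 and 8 counts in NC libraries. Its highest library, NC library 3, reached 0.106 CPM, and no fold change is given. The overlapping HCG4P8 was at 0 in every library. The counts of the 5 heavy chain genes among the 9, not of every class I heavy chain gene, summed to 2787, 2454 and 2720 CPM in STING-OE libraries, against 2152, 2308 and 1985 CPM in NC libraries. The sum was 1.24-fold higher in STING-OE cells (log2 difference 0.31), without overlap between the groups, and a two-sided exact permutation test over libraries gave p = 0.1, the smallest that 3 against 3 allows. With 10 rows of the HLA noncoding and pseudogene list added that the deposited tables annotate as pseudogenes, 15 rows in all, the sum was 2796 ± 194 CPM in STING-OE cells and 2260 ± 178 CPM in NC cells (SD, n = 3 each), again 1.24-fold (exact permutation p = 0.1).

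B2M (ENSG00000166710, chromosome 15, plus strand, 44711487 to 44718877), the shared light chain and the sole gene of the 9 outside chromosome 6, ranked 15 among all genes by mean CPM in NC cells. It was at 3332, 3080 and 3510 CPM in STING-OE libraries, against 3073, 3087 and 2826 CPM in NC libraries. STING-OE library 2 stood beside NC libraries 1 and 2, while the other STING-OE libraries lay above all NC libraries. B2M averaged 3307 ± 216 CPM in STING-OE cells and 2995 ± 147 CPM in NC cells (SD, n = 3 each). The log2 fold change of 0.14 (SE 0.0508) did not pass (edgeR adjusted p = 0.189).

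**Figure D1:**
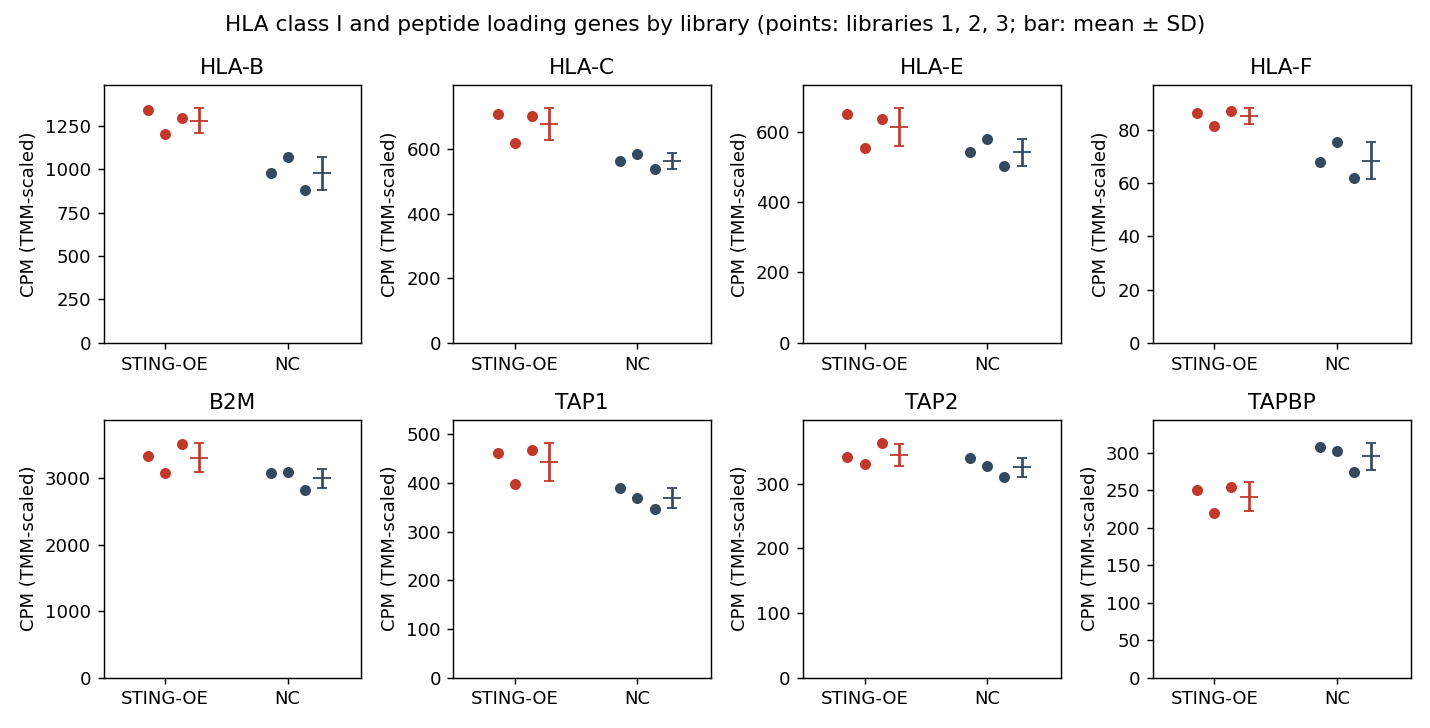
Level of the 8 tested genes in each library, in CPM with TMM-scaled library sizes (y axes start at 0). Points are libraries 1, 2 and 3 of each group from left to right, and the bars beside them are means ± SD (n = 3). HLA-B, HLA-C, HLA-F and TAP1 were higher in all STING-OE libraries than in any NC library, TAPBP was lower in all of them, and HLA-E, B2M and TAP2 overlapped.

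The peptide transporter is built from TAP1 and TAP2, whose genes neighbour each other on chromosome 6. TAP1 (ENSG00000168394, minus strand, 32845209 to 32853978) was at 462, 398 and 468 CPM in STING-OE libraries, against 389, 369 and 347 CPM in NC libraries. The groups did not overlap, but STING-OE library 2 was 1.02 times NC library 1. The log2 fold change of TAP1 was 0.27 (SE 0.0622), like that of HLA-C, and its edgeR adjusted p of 0.0564 missed the threshold, while DESeq2 gave an adjusted p of 0.000667, with 0.000667 to 0.224 over 18 alternatives. The model of PSMB9, an immunoproteasome subunit encoded on the opposite strand, covers all 8770 bases of the TAP1 model, and PSMB8-AS1 covers 1292 bases of it. PSMB9 was far less abundant, at 60.6, 44.9 and 60.8 CPM in STING-OE libraries, against 45.4, 47.7 and 39.9 CPM in NC libraries (log2 fold change 0.32, edgeR adjusted p = 0.363). PSMB8-AS1 had a log2 fold change of 0.11 (edgeR adjusted p = 0.73). The sum of TAP1 with both had a log2 fold change of 0.268 (edgeR adjusted p = 0.0763).

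TAP2 (ENSG00000204267, minus strand, 32821833 to 32838770) was at 342, 330 and 363 CPM in STING-OE libraries, against 340, 327 and 310 CPM in NC libraries. All but STING-OE library 3 lay between 310 and 342 CPM. TAP2 had the smallest change of the 8 tested genes, 0.08 on the log2 scale (SE 0.0489, edgeR adjusted p = 0.487). A second model, AL669918, covers the whole of TAP2 on the same strand and had a log2 fold change of 0.11 (edgeR adjusted p = 0.887), and the sum of both gave 0.0833 (edgeR adjusted p = 0.485).

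TAPBP (ENSG00000231925, chromosome 6, minus strand, 33299694 to 33314251) encodes tapasin, which bridges class I molecules to the transporter and favours tightly bound peptides. It was at 250, 220 and 255 CPM in STING-OE libraries, against 308, 303 and 275 CPM in NC libraries. Every STING-OE library lay below every NC library, and the nearest libraries differed 1.08 times. TAPBP averaged 242 ± 19.1 CPM in STING-OE cells and 295 ± 17.7 CPM in NC cells (SD, n = 3 each). Its log2 fold change was −0.29 (SE 0.0598, edgeR adjusted p = 0.0307). The GC content of its longest GENCODE v29 transcript was 57.6%, against 57.5% for TAP1, and with an offset for GC content and length TAPBP stood at −0.231 (edgeR adjusted p = 0.0429) and TAP1 at 0.32 (edgeR adjusted p = 0.0236). Over 17 alternatives the adjusted p of TAPBP was 0.000105 (DESeq2) to 0.202, and its call was lost with limma-voom (0.0688), the replicate block (0.0825) and both FPKM fits (0.19 and 0.202).

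**Figure D2:**
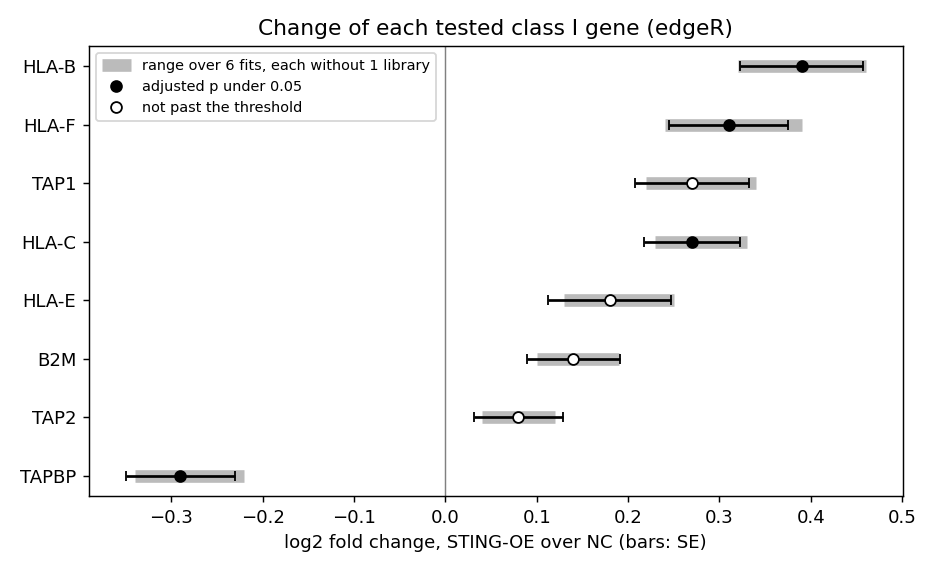
Log2 fold change of each tested gene, STING-OE over NC, with bars of ± 1 SE from edgeR (x axis), genes in rows by size of change. Filled points passed an adjusted p of 0.05, open points did not, and grey bars span the 6 estimates made without 1 library each. TAPBP at −0.29 is the single negative estimate, and the others run from 0.08 for TAP2 to 0.39 for HLA-B.

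Across the 8 tested genes, 4 were higher in every STING-OE library than in any NC library (HLA-B, HLA-C, HLA-F and TAP1) and 1 was lower (TAPBP). Over all tested genes such separation was found for 10.1% in the higher and 9.73% in the lower direction. Within each group the 8 genes shared their lowest library, so they are not 8 independent observations. STING-OE library 2 was the lowest STING-OE library for 8 of the 8 genes, and NC library 3 the lowest NC library for 8 of the 8, TAPBP included. How often these libraries were lowest over all tested genes was not counted.

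Ratios within a library do not depend on the scaling between libraries. TAP1 to TAPBP was the most separated of the 5 ratios computed. It was 1.85, 1.81 and 1.83 in STING-OE libraries, against 1.26, 1.22 and 1.26 in NC libraries. Libraries of the same group thus differed little, and the mean was 1.83 ± 0.0187 in STING-OE cells and 1.25 ± 0.026 in NC cells (SD, n = 3 each), a 1.47-fold difference. The ratio of the transporter subunits, TAP1 to TAP2, was 1.35, 1.21 and 1.29 in STING-OE libraries, against 1.14, 1.13 and 1.12 in NC libraries. STING-OE library 1 was highest and STING-OE library 2 lowest among the STING-OE libraries, and the log2 difference of 0.18 was 0.143 without STING-OE library 1 and 0.223 without STING-OE library 2.

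HLA-B and HLA-C counts relative to the light chain were also higher in STING-OE cells. For HLA-E, whose log2 fold change of 0.18 was near the 0.14 of B2M, this ratio was not computed. HLA-B to B2M was 0.402, 0.39 and 0.369 in STING-OE libraries, against 0.318, 0.346 and 0.311 in NC libraries. HLA-C to B2M was 0.213, 0.202 and 0.2 in STING-OE libraries, against 0.184, 0.19 and 0.191 in NC libraries. The log2 differences were 0.25 for HLA-B and 0.12 for HLA-C. HLA-B to HLA-E, a classical over a nonclassical chain, was 2.06, 2.17 and 2.04 in STING-OE libraries, against 1.81, 1.85 and 1.75 in NC libraries. None of the 5 ratios overlapped between the groups, and each gave p = 0.1 in a two-sided exact permutation test, adjusted p = 0.1 over the 5 ratios, the smallest the design allows. In each pair the first gene also had the larger log2 fold change, so the shared direction restates those estimates and is no further support. TAP1 to TAPBP sets an estimate of 0.27 over an estimate of −0.29. These ratios compare counts, not molecules, because the genes differ in length.

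**Figure D3:**
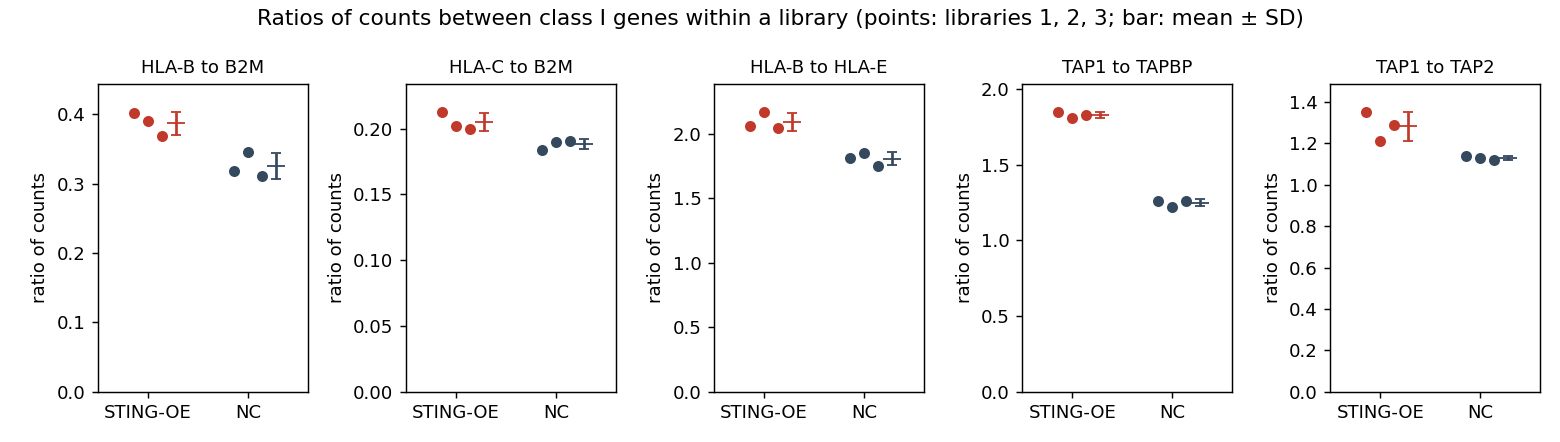
Ratio of the counts of a pair of genes within each library (y axes start at 0). Points are libraries 1, 2 and 3 of each group from left to right, and the bars beside them are means ± SD (n = 3). In each of the 5 panels the STING-OE libraries lie above the NC libraries, with the widest gap for TAP1 to TAPBP, at 1.81 to 1.85 in STING-OE libraries and 1.22 to 1.26 in NC libraries. In each pair the first gene had the larger log2 fold change, so the shared direction restates those estimates.

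Per length, on the authors' FPKM scale, the order in STING-OE cells was B2M (mean 507 FPKM), HLA-B (390), HLA-C (252), HLA-E (195), TAP1 (85.8), TAP2 (50.3), TAPBP (44.5), HLA-F (18.3) and HLA-G (0.0167). In NC cells the means were 452 FPKM for B2M, 293 for HLA-B, 206 for HLA-C, 170 for HLA-E, 70.4 for TAP1, 53.6 for TAPBP, 46.9 for TAP2, 14.5 for HLA-F and 0.0267 for HLA-G. The order differed between the groups for a single neighbouring pair. TAP2 lay above TAPBP in STING-OE libraries, at 48.72 to 52.88 against 40.99 to 46.94 FPKM, whereas in NC libraries TAP2 at 44.29 to 49.56 FPKM and TAPBP at 49.55 to 56.57 FPKM touched at their ends. No other neighbours in the order overlapped within a group. The length implied by counts and FPKM was 6601 bases for B2M and 3313 bases for HLA-B, longer than their longest GENCODE v29 transcripts of 2403 and 1547 bases, so the distances between genes depend on the length the authors used.

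Other steps of the pathway were counted in lists. Over all tested genes 3116 of 21679 (14.4%) had an unadjusted edgeR p under 0.05, and the counts of such genes given for each list are to be read against that share. Among 7 genes of the proteasome and of peptide trimming, 0 were called higher or lower by edgeR, 1 had an unadjusted p under 0.05, and the median log2 fold change was −0.0458. PSMB8, an immunoproteasome subunit, was at 162, 145 and 157 CPM in STING-OE libraries, against 140, 137 and 135 CPM in NC libraries (log2 fold change 0.17, edgeR adjusted p = 0.0994). All of its STING-OE libraries lay above its NC libraries. DESeq2 called PSMB8 and PSMB9 (adjusted p of 0.0178 and 0.0211), and limma-voom called 0 of the 7. Over 17 alternatives the adjusted p was 0.0144 to 0.305 for PSMB8 and 0.0167 to 0.582 for PSMB9. Without STING-OE library 2, edgeR gave PSMB9 a log2 fold change of 0.454 and an adjusted p of 0.0167. PSMB10, the remaining subunit specific to the immunoproteasome, had −0.16 (edgeR adjusted p = 0.583).

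Of 8 loading chaperones and editors, 0 were called by edgeR, DESeq2 or limma-voom, 1 had an unadjusted edgeR p under 0.05, and the median log2 fold change was −0.0345. HSPA5, the chaperone BiP, had a log2 fold change of 0.13 (edgeR adjusted p = 0.33). Calnexin (CANX) and SEC61A1, part of the protein channel of the endoplasmic reticulum, had −0.07 and −0.06 (edgeR adjusted p of 0.496 and 0.596). Of 15 transcription factors known to act on class I genes, 0 were called by any of the 3 tools and 3 had an unadjusted edgeR p under 0.05, with a median log2 fold change of 0.0687. NLRC5, the transactivator of class I genes, was at 111, 106 and 116 CPM in STING-OE libraries, against 108, 104 and 92.1 CPM in NC libraries (log2 fold change 0.13, edgeR adjusted p = 0.325). NC library 3 was low and the others overlapped. STAT2 and RFXAP, which act in interferon signalling and in the X box complex, had log2 fold changes of 0.13 and 0.21 (edgeR adjusted p of 0.305 and 0.347).

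The list of class I pseudogenes and HLA noncoding RNAs held the next call. HCP5, a noncoding RNA gene of the HLA region, was at 41.5, 37 and 41.5 CPM in STING-OE libraries, against 28, 27.8 and 25.1 CPM in NC libraries. It rose 1.48-fold (log2 fold change 0.57, SE 0.0686, edgeR adjusted p = 0.000793), more than any of the 8 tested genes above by its estimate. Of the 18 names in the list 14 had a row and 7 were tested, 1 was higher and 0 lower, and the median log2 fold change was 0.40. In the edgeR fit that median is the value of HLA-H. Without STING-OE library 1 the median was 0.0701, and in the limma fit of FPKM with a pseudocount of 1 it was 0.14. HLA-K, among the 7, was at 0 in STING-OE library 3 and NC libraries 2 and 3. HLA-H, a pseudogene close in sequence to classical heavy chains, was at 141, 97 and 121 CPM in STING-OE libraries, against 91.5, 104 and 77 CPM in NC libraries (log2 fold change 0.40, edgeR adjusted p = 0.472). Its groups overlapped. HLA-W was below 1 CPM in every library (0.78, edgeR adjusted p = 0.703).

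Among genes related to class I, neither the class I-like molecules nor the class II genes held an edgeR call. Of 13 class I-like molecules 11 were tested, 0 were called by edgeR or limma-voom, 1 had an unadjusted p under 0.05, and the median log2 fold change was −0.10. HFE, which regulates iron uptake, was at 37.2, 31.9 and 36 CPM in STING-OE libraries, against 40.2, 43.6 and 39.8 CPM in NC libraries (log2 fold change −0.23, edgeR adjusted p = 0.106). It was the gene DESeq2 called (adjusted p = 0.0292, with 0.0292 to 0.385 over 17 alternatives). The neonatal Fc receptor FCGRT and the NKG2D ligand RAET1G had log2 fold changes of −0.47 and −0.48 (edgeR adjusted p of 0.348 and 0.359). Of 13 class II genes 10 were tested, 0 were called by edgeR, DESeq2 or limma-voom, 2 had an unadjusted edgeR p under 0.05, and the median was −0.26. CIITA, the class II transactivator, was at 2.63, 3.01 and 2.83 CPM in STING-OE libraries, against 2.84, 4.52 and 6.19 CPM in NC libraries (log2 fold change −0.68, edgeR adjusted p = 0.179). HLA-DMA and HLA-DRA had −0.49 and −0.46 (edgeR adjusted p of 0.305 and 0.628). Both were low. HLA-DMA stood at no more than 1.77 CPM in STING-OE libraries and 2.25 CPM in NC libraries. HLA-DRA reached at most 1.01 CPM and 1.69 CPM, in the same order. The leukocyte markers PTPRC and LYZ, like CIITA, were highest in NC libraries 2 and 3, at 7.63 and 4.66 CPM for PTPRC and 4.05 and 2.69 CPM for LYZ, and their part in the class II values was not tested.

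**Figure D4:**
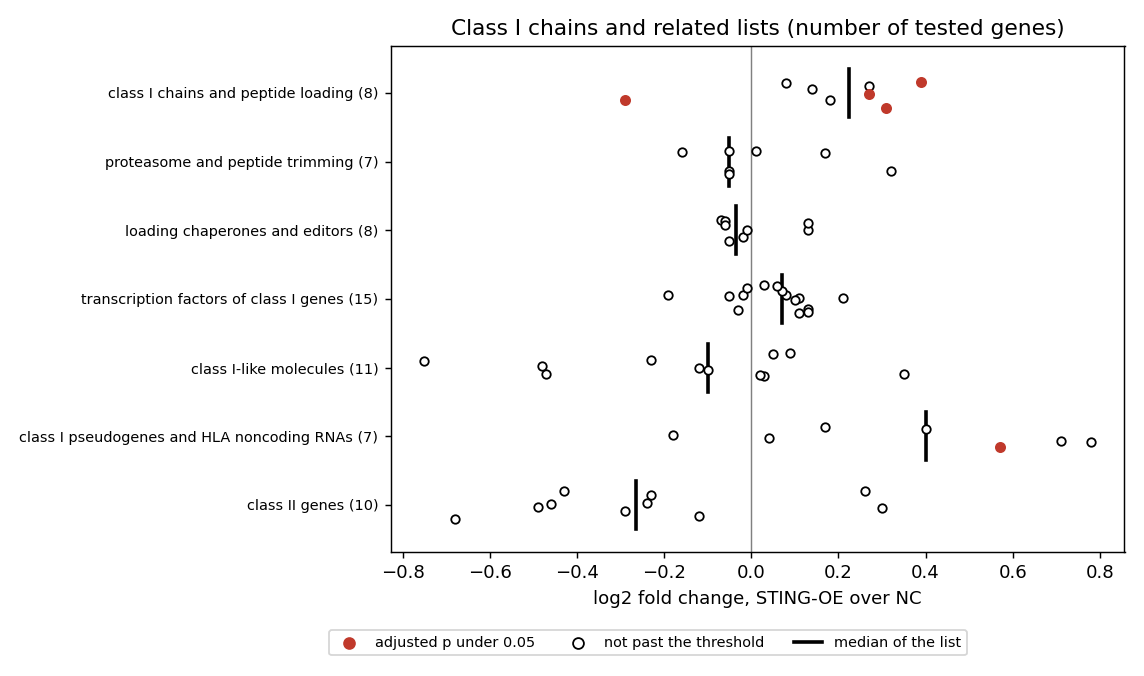
Log2 fold change, STING-OE over NC, of each tested gene in the 9-gene set and in 6 related lists (number of tested genes in parentheses). Each point is a gene, filled where edgeR's adjusted p was under 0.05, and the vertical bars are medians. Points above and below each other within a list are spread for legibility. The 8 tested class I and peptide loading genes have a median of 0.22, with TAPBP alone left of 0. Outside them the single filled point is HCP5, in the list of class I pseudogenes and HLA noncoding RNAs.

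All but B2M lie in a stretch of chromosome 6 from 29722775 to 33314251, the HLA region. It holds 265 other rows, of which 167 were tested, 3 called higher and 1 lower (2.4%), with a median log2 fold change of −0.0366. HCP5 was among the higher ones. ATP6V1G2-DDX39B, a readthrough gene, was at 38.4, 39.5 and 40.2 CPM in STING-OE libraries, against 26, 33.1 and 32.3 CPM in NC libraries (1.29-fold, edgeR adjusted p = 0.0345). DDR1, a collagen receptor, was at 88, 76.1 and 89.3 CPM in STING-OE libraries, against 110, 109 and 103 CPM in NC libraries (0.788-fold, edgeR adjusted p = 0.00996). Of the 167 tested genes of the stretch 75 had a positive estimate, against 7 of the 8 class I and loading genes, B2M on chromosome 15 among them. Over all tested genes 10885 of 21679 had a positive estimate.

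The genes whose profile over the 6 libraries came nearest to that of HLA-B were found among 14892 genes by the root mean square difference of centred log2 CPM. They were PROSER2 (0.045), H4C9 (0.0504), H2AC6 (0.0529), BOLA2-SMG1P6 (0.0553) and GTF2IP23 (0.0611), where the profile of HLA-B itself has a root mean square of 0.218. Among them H2AC6, a histone gene, was called, at 43.9, 37.7 and 41.8 CPM in STING-OE libraries, against 30.9, 31.9 and 29.6 CPM in NC libraries (1.34-fold, edgeR adjusted p = 0.00538). Of the other tested class I and loading genes, HLA-F differed from HLA-B by 0.0457, HLA-C by 0.0821, TAP1 by 0.0986 and TAPBP by 0.346. To the mean profile of the 8 genes the nearest were CIAO3 (0.0225), TBC1D9 (0.03), MSX1 (0.034), MRPL44 (0.0342) and SHFL (0.0356). Of the 8 genes, each a part of that mean, B2M differed from it by 0.0251, HLA-B by 0.119 and TAPBP by 0.23. Such nearness over 6 libraries is a description.

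The calls were sensitive to single libraries, while the direction of no tested gene among the 8 changed in any fit. Without 1 library at a time, HLA-B kept a log2 fold change of 0.32 to 0.46, HLA-C 0.23 to 0.33, HLA-F 0.24 to 0.39 and TAPBP −0.34 to −0.22. HLA-B lost its call without STING-OE library 1, 2 or 3 (edgeR adjusted p of 0.168, 0.0502 and 0.0843) or NC library 1 (0.0862). HLA-C lost it without STING-OE library 1 or 3 (0.0622 and 0.092) or NC library 1, 2 or 3 (0.117, 0.0719 and 0.151). HLA-F did so without STING-OE library 1, 2 or 3 (0.0731, 0.0714 and 0.105) or NC library 1 or 3 (0.131 and 0.141). TAPBP did so without STING-OE library 1 or 2 (0.0894 and 0.105) or NC library 1 or 2 (0.158 and 0.158). TAP1 passed without STING-OE library 2 (log2 fold change 0.336, edgeR adjusted p = 0.0121). HCP5 passed in each of these 6 fits.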

How the data were processed

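Trizol-extracted total RNA was made into libraries with an Illumina TruSeq RNA kit, per the labels' protocols. Bowtie 0.12.2 is named in the submitters' processing notes. Not given in the sources used here: genome build, annotation, counting program and strand setting. Each table holds read counts and FPKM values per gene, deposited by the authors, per the file headers. GENCODE v29 holds 40903 of the 42307 gene identifiers, and 89.8% of them match its start or end to within 1 base. Coordinates are therefore taken as GRCh38. Promoters are from RefSeq (GRCh38.p14).

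Tests on the deposited counts used edgeR 4.0.16 and R 4.3.3 (low-count filter filterByExpr, TMM, robust quasi-likelihood fit, two-sided, no covariate, Benjamini-Hochberg over all tested genes, threshold 0.05). Each SE is the size of the log2 fold change over the square root of F, an approximation. The deposited FPKM values were used for levels per length and, as log2(FPKM + 0.1 or 1) in limma 3.58.1, as alternatives. Other alternatives were DESeq2 1.42.0, limma-voom, RLE, upper-quartile or total-count scaling, no or a stricter filter (1 CPM in 3 libraries), an offset for GC content and length, the replicate number as a block, sums with overlapping models, and leaving out each library. Replicates differed beyond sampling noise (chi-square per gene 11.7 to 23).

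The genes and lists were chosen with earlier results of these data known. Beside the 9 genes, the text names STING1, per list the 3 tested genes with the smallest p and every gene called, overlapping models, and the nearest profiles. PTPRC, LYZ, GFAP, S100B, NKG7, ATP6V1G2-DDX39B and DDR1 were named after their values were seen. 1 gene called higher in the chromosome 6 stretch is not reported here.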

Additional observations from a re-analysis of the deposited data

How the results depend on the processing

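No estimate of the 8 tested class I and loading genes changed sign under any alternative. Of these genes 3 were called higher and 1 lower. DESeq2 called 5 higher, limma-voom 1 higher and 0 lower, and limma on log2(FPKM + 0.1) or log2(FPKM + 1) called 0 in either direction. Without 1 library at a time 0 to 2 were called higher and 0 to 1 lower. Over all genes, 131 were higher and 193 lower. The counts were 420 and 612 with DESeq2, 58 and 79 with limma-voom, 8 and 1 with FPKM + 0.1, 5 and 0 with FPKM + 1, 203 and 302 with the GC and length offset, and 274 and 412 with the stricter filter. Scaling to total counts called 253 higher and 142 lower. Without 1 library, 34 to 260 were higher and 26 to 481 lower. The highest of both, 260 and 481, came without STING-OE library 1, where 0 of the 8 class I and loading genes were called in either direction. In the stretch of chromosome 6, 4 genes were called, against 13 with DESeq2, 0 with either FPKM fit, 8 with the offset, 2 with limma-voom, 7 with the stricter filter and 1 to 8 without 1 library. Of the proteasome list 0 were called, against 2 with DESeq2 and 1 each with the offset, the stricter filter, total counts and without STING-OE library 2 (0 to 1 without 1 library). The chaperone list had 1 call with the offset (CANX, −0.119). The class I-like list had 1 with DESeq2 and 1 with the stricter filter. The list with HCP5 had 0 with either FPKM fit. The TAP1 to TAP2 log2 difference was 0.143 to 0.223 without 1 library. Of other named genes, AL669918 turned to −0.00441 without STING-OE library 2 (up to 0.243 without 1 library), HLA-F-AS1 to −0.00832 with the offset and −0.0347 without NC library 3 (up to 0.106), and RPL3P2 to −0.0512, −0.000801 and −0.225 without STING-OE library 3, NC library 1 or NC library 2 (up to 0.417). The cause of these shifts was not tested.

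Replicate numbers are shared between the groups, but the deviations of same-numbered libraries correlated at 0.0551, 0.0231 and 0.0172, and STING-OE library 3 correlated most with NC library 2 (0.0192), so the numbers were not taken as pairs. With the replicate number as a block 1 of the 8 genes was called higher (HLA-B, adjusted p = 0.0408) and 0 lower, and 55 genes were higher and 65 lower in all. With 3 libraries per group, exact tests of sums and ratios could not pass the threshold, and HLA-G was too low to compare.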
